A study of Mus musculus with 4 samples.

Results

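Amelogenin, the main protein of forming tooth enamel, was encoded by one of the most abundant transcripts in insulin reporter-positive cells made from mouse gallbladder. The genes described here are Amelx (amelogenin), the enamel matrix genes Ambn, Enam, Amtn and Odam, the enamel peptidase genes Mmp20 and Klk4, and Arhgap6, within whose locus Amelx lies. These 8 genes were taken by symbol from a table of 20377 genes. They were chosen by the mean RPKM of Amelx, the second highest of all genes, and by their relation to it, so the level of Amelx is given as a description without a test. The study has 1 group, rGBC2, with 4 libraries numbered 1 to 4. The cells were primary gallbladder cells of 8-week-old mice on a C57BL/6 background that carry MIP-GFP, B6.Cg-Tg(Ins1-EGFP)1Hara/J, in which an Ins1 promoter drives a green fluorescent protein. All 4 libraries came from cells reprogrammed over 10 days with Pdx1, Ngn3 (Neurog3), Mafa and PAX6 and with compounds that the labels do not name, and then sorted for reporter fluorescence. The labels do not say whether the libraries came from separate animals or cultures, so p-values measure only the spread between these libraries, which may in part be technical. The libraries also fall into pairs, since transcripts of Y-linked genes were present in replicates 1 and 2 and listed at 0 in replicates 3 and 4, whereas the test treats the 4 libraries as independent.

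Enamel is built by ameloblasts, epithelial cells of the tooth germ, which secrete a protein matrix that guides mineral growth and is later removed. Amelogenin makes up most of that matrix, ameloblastin (Ambn) and enamelin (Enam) are its other structural proteins, and the metalloproteinase Mmp20 and the serine protease Klk4 cut and clear it. Amelotin (Amtn) and the odontogenic ameloblast-associated protein (Odam) are made late, at the enamel surface. In ameloblasts these genes are used as a set, whereas gallbladder epithelium and pancreatic islets are not known as sites of enamel formation.

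Only the first gene of that set was measured at an appreciable level. Values are in RPKM, read counts scaled to transcript length and to mapped reads, in which genes can be compared per length. Amelx was measured at 5403 RPKM in replicate 1, 3612 RPKM in replicate 2, 16099 RPKM in replicate 3 and 16687 RPKM in replicate 4. Replicates 3 and 4 were high and close to each other, and replicate 2 was the lowest. The mean was 10450 ± 6905 RPKM (SD, n = 4), and the highest library exceeded the lowest 4.62-fold. In these pooled cells, more cells that express a gene and more RNA per cell cannot be told apart. Amelx took 1.12%, 0.688%, 2.88% and 2.87% of the summed RPKM of replicates 1 to 4, and an estimated 64312 to 440309 reads per library stand behind its values.

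**Figure D1:**
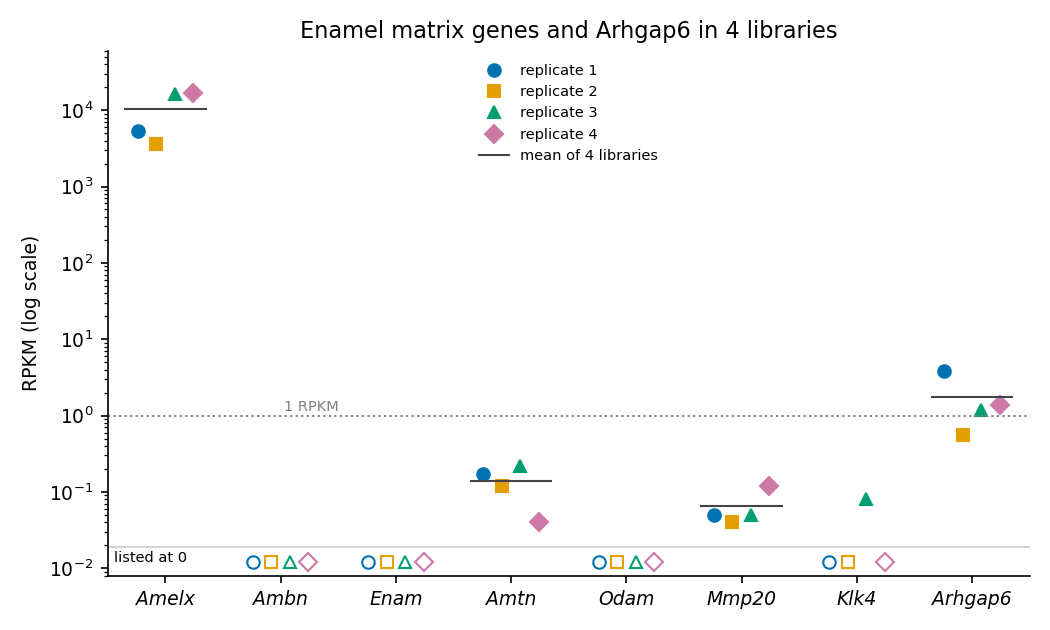
RPKM (log scale) of the 8 genes in each of the 4 libraries, with the mean as a line where no library is listed at 0 and open symbols for values listed at 0. Amelx lies at 3612 RPKM or higher in every library, Arhgap6 between 0.56 and 3.8 RPKM, and no other enamel gene exceeds 0.22 RPKM.

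The place of Amelx among all genes differed between libraries. It ranked 2 in replicates 1, 3 and 4, below Npy alone, and 7 in replicate 2, where Npy, Iapp, Gnas, Mt1, Ins2 and Cpe were higher. Npy, the gene of neuropeptide Y, exceeded Amelx in 4 of 4 libraries, with ratios of 3.22, 6.03, 2.26 and 2.32 in replicates 1 to 4. Below Amelx in the order of means stood Iapp, the islet amyloid polypeptide, at 4169 ± 1423 RPKM, Gnas, a stimulatory G protein subunit, at 4080 ± 352 RPKM, and Cpe, a prohormone-trimming carboxypeptidase, at 4034 ± 1048 RPKM (SD, n = 4). The difference from Iapp on the log2(RPKM + 1) scale was 1.11 ± 1.05 (SD, n = 4), with Amelx higher in 3 libraries and Iapp in replicate 2. Gnas and Cpe gave 1.06 ± 1.01 and 1.12 ± 0.85, again with Amelx lower in replicate 2 only. For Ins2, the more abundant insulin transcript, the difference was 1.58 ± 1.09, again with Amelx higher in 3 libraries. As Amelx was chosen by its mean level, these differences describe the order and test nothing.

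**Figure D2:**
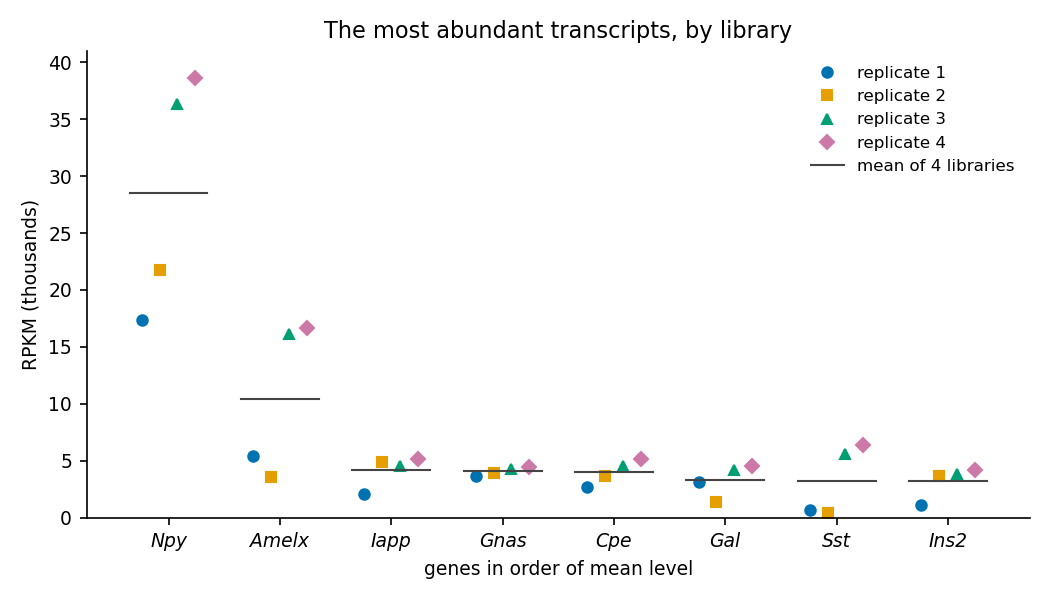
RPKM (linear axis from 0, in kilo-RPKM) of the 8 genes with the highest means, by library, with the mean of the 4 libraries as a line. Amelx is the gene after Npy by its mean of 10450 RPKM. Its 5403 RPKM in replicate 1 lies above the values of Iapp, Gnas and Cpe there, and its 3612 RPKM in replicate 2 lies below them.

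The structural partners of amelogenin were not detected. Ambn and Enam were listed at 0 RPKM in all 4 libraries, and so was Odam. If these values are counts of reads, 3 reads at the estimated depth would give 0.0492 to 0.0729 RPKM for Ambn, 0.0166 to 0.0246 RPKM for Enam and 0.105 to 0.155 RPKM for Odam. These floors cover counting error only. A value at or near 0 in the table can also be a failed estimate, since Gapdh, a gene that every cell uses, was listed at 0 in replicate 2 and at 0.03 to 0.2 RPKM in the other libraries.

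Amtn was at 0.17, 0.12, 0.22 and 0.04 RPKM in replicates 1 to 4, an estimated 1 to 6 reads per library. Replicate 4 was lowest. The mean of 0.138 ± 0.0768 RPKM (SD, n = 4) lay below 1 RPKM, by -0.82 on the log2(RPKM + 1) scale (limma's test, Benjamini-Hochberg adjusted p over all genes tested = 7.72e-06), in 4 of 4 libraries. The level of 1 RPKM serves as a reference for low expression, because a single group offers no other comparison.

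Both enamel peptidase genes were near 0. Mmp20 had values of 0.05, 0.04, 0.05 and 0.12 RPKM in replicates 1 to 4. Replicate 4, with an estimated 13 reads against 3 or 4 in the others, stood apart. Its mean of 0.065 ± 0.0370 RPKM (SD, n = 4) lay below 1 RPKM (limma, adjusted p = 6.63e-07). Klk4 had 0.08 RPKM in replicate 3, an estimated 2 reads, and a value of 0 in each of the other 3 libraries, and also lay below 1 RPKM (limma, adjusted p = 5.58e-07). The values of Amtn, Mmp20 and Klk4 were as low as those of Gapdh or close to them. The test cannot tell low expression from a failed estimate.

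Of the 7 genes other than Amelx, 3 were listed at 0 in every library, as were 3458 of all 20377 genes. The other 4 entered the test. None of the 4 lay above 1 RPKM, against 65.0% of the 16919 genes tested, and the count was also 0 at an unadjusted p under 0.05 and in limma without a variance trend. The 3 enamel genes Amtn, Mmp20 and Klk4 lay below it, against 26.1% of the genes tested. In the order of means Amtn exceeded Mmp20 by 0.09 ± 0.14 on the log2(RPKM + 1) scale and Mmp20 exceeded Klk4 by 0.06 ± 0.08 (SD, n = 4), each in 3 of 4 libraries, so neighbours in the order differed by less than their spread. From Amelx to Amtn, the next enamel gene, the level fell from 10450 to 0.138 RPKM.

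Arhgap6 encodes a GTPase-activating protein that acts on the actin cytoskeleton. It was at 3.8, 0.56, 1.18 and 1.37 RPKM in replicates 1 to 4, an estimated 371, 50, 118 and 183 reads. Replicate 1 was the highest, where Amelx was below its own mean. The mean of 1.73 ± 1.42 RPKM (SD, n = 4) did not differ from 1 RPKM beyond the spread between libraries (limma, difference 0.32 on the log2(RPKM + 1) scale, adjusted p = 0.302), and without replicate 1 the mean was 1.04 RPKM. Its difference from Amtn on the log2(RPKM + 1) scale was 1.14 ± 0.67 (SD, n = 4), with Arhgap6 higher in 4 of 4 libraries. Amelx was 1422, 6450, 13643 and 12181 times as high as Arhgap6 in replicates 1 to 4, and both this ratio and the level of Amelx were highest in replicates 3 and 4.

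The deposited table places Amelx within the span of Arhgap6. In mm9, the build of the table, Amelx (NM_001081978) lies on chromosome X from 165614046 to 165625141 on the minus strand, and Arhgap6 (NM_178754) from 165474561 to 165742367 on the plus strand. The 11.1 kb of Amelx start 139 kb inside one end of Arhgap6 and stop 117 kb short of the other. In GENCODE M21, an annotation of the later build GRCm38, Amelx falls into intron 1 of all 7 annotated Arhgap6 transcripts and shares 0 exon bases with any of them. The library kit used, TruSeq v2, does not mark strand, and the strand setting of the counting is not given in the sources used here. RefSeq lists 3 coding Amelx transcripts and the table has 1 row, so splice forms, such as the one for the short leucine-rich amelogenin peptide, cannot be told apart. The other genes lie elsewhere in mm9, Odam (88314720 to 88321767), Amtn (88805133 to 88814941), Ambn (88885036 to 88897554) and Enam (88917000 to 88935074) in a row on the plus strand of chromosome 5, Mmp20 on chromosome 9 (7628231 to 7674968) and Klk4 on chromosome 7 (51136542 to 51141174). Amelx thus differs in place from the 4 matrix genes of chromosome 5. These were at or near 0, and so were Mmp20 and Klk4 on other chromosomes. A link between place and level was not tested.

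The promoters of both genes are shown because 2 genes on opposite strands of one locus differed so widely in level. Both sequences are the 250 bases before the transcript start in RefSeq's GRCm38.p6, at chrX:169187210-169187459 on the minus strand for Amelx and chrX:169036361-169036610 on the plus strand for the Arhgap6 transcript of the table. Capitals mark the motifs searched on both strands, which are TATAAA (the TATA box), CANNTG (the E-box bound by basic helix-loop-helix factors, the family of Neurog3), TAATTA (a homeodomain core, the family of Pdx1), TGCTGAC (one arm of a Maf recognition element, the family of Mafa) and CCAAT.
Amelx: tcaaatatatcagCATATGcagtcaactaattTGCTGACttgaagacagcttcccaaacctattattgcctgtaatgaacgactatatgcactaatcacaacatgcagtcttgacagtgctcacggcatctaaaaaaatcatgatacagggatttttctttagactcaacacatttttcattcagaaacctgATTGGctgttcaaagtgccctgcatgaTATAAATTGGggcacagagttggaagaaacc
Arhgap6: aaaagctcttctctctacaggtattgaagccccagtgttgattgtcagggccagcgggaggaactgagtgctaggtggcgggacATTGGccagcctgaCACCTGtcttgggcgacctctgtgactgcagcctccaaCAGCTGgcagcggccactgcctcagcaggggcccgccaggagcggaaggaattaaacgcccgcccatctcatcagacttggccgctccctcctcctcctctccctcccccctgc
The Amelx promoter holds TATAAA 31 to 26 bases before the start, TGCTGAC 218 to 212 bases before it, 1 E-box (CATATG) and CCAAT on the opposite strand at 2 places, the nearer of which shares 1 base with the TATA box. The Arhgap6 promoter holds 2 E-boxes and 1 CCAAT, and neither TATAAA nor TGCTGAC. Of 32851 RefSeq promoters of this length, 12.4% hold TATAAA, 3.81% TGCTGAC, 66.2% an E-box, 33.8% CCAAT and 4.84% TAATTA, and 0.42% hold both TATAAA and TGCTGAC. No other pair was counted, and the Amelx promoter holds this one, so its share is a description and tests nothing. GC content was 38.4% for Amelx and 62.0% for Arhgap6, against a median of 52.4%. Among the 10 promoters listed for the 8 genes, TATAAA also occurs in those of Enam and Mmp20, and TGCTGAC in that of Amelx only. TAATTA occurs in that of Mmp20 only, so neither sequence shown here holds it. These matches describe the letters in the window, and binding was not measured.

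The other genes of the locus were measured at far lower levels than Amelx. Within 1 Mb of Amelx the table has 4 more genes besides Arhgap6. Hccs, which attaches haem to cytochrome c, lies 124 kb away and was at 17.4, 20.6, 10.5 and 10.5 RPKM in replicates 1 to 4. Msl3, a chromatin protein, was at 15.2, 24.9, 14.7 and 15.5 RPKM, and Mid1, a microtubule-associated ubiquitin ligase, at 8.45, 8.71, 6.28 and 6.39 RPKM. These 3 neighbours exceeded 1 RPKM (adjusted p in limma of 2.94e-05, 6.33e-06 and 4.70e-05), as did 65.0% of all genes tested. The mean of Amelx was 595 times that of Msl3, the highest of them. Frmpd4, a synaptic scaffold protein, had 2.46, 2.86, 0.84 and 0.79 RPKM, which was not called above or below 1 RPKM (adjusted p = 0.195 in limma). Hccs, Mid1 and Frmpd4 were lower in replicates 3 and 4 than in replicates 1 and 2, opposite to Amelx. Among the 839 genes of chromosome X in the table, the next after Amelx was Tmsb4x, thymosin beta 4, with 1372 ± 452 RPKM (SD, n = 4), and the mean of Amelx was 7.62 times as high.

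**Figure D3:**
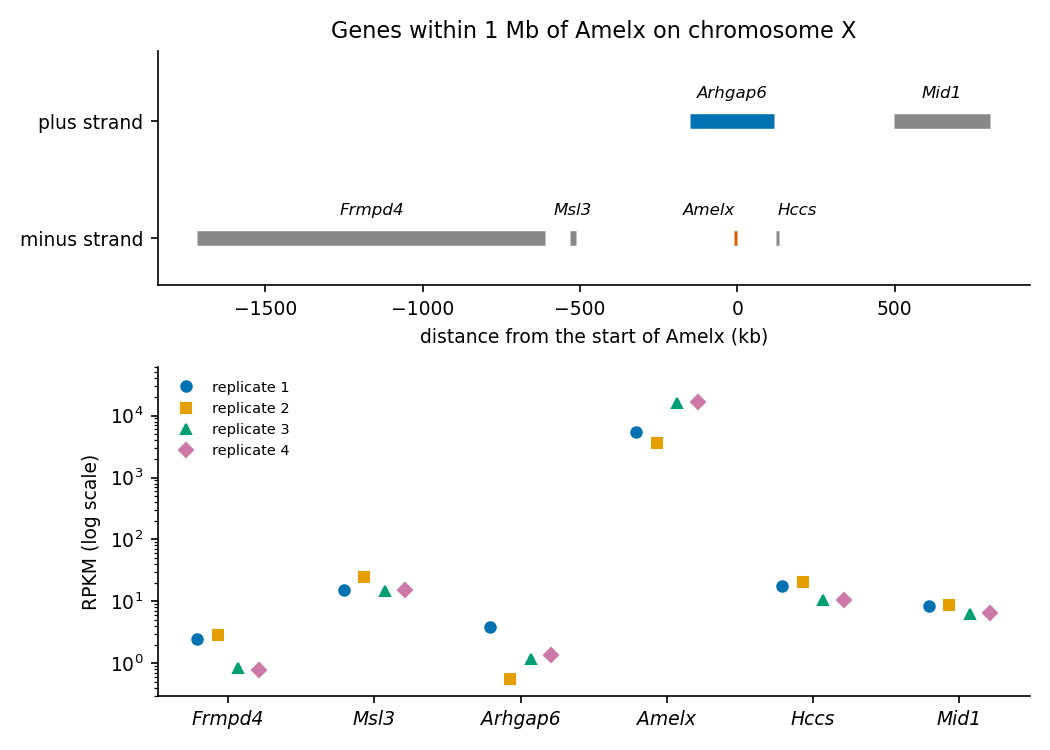
Above, the spans of the genes within 1 Mb of Amelx by strand, as distance in kb from the start of Amelx; below, their RPKM in each library (log scale). Amelx lies inside Arhgap6 on the opposite strand, and its 4 values stand far above those of the other 5 genes, none of which exceeds 24.91 RPKM.

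The split of Amelx between replicates 1 and 2 on one side and 3 and 4 on the other was shared by many genes. Of 7490 genes with a mean of at least 10 RPKM and no value at 0, 36.0% were, like Amelx, higher in both of replicates 3 and 4 than in both of replicates 1 and 2, and 34.9% were lower in both. The difference of Amelx between these pairs, in mean log2(RPKM + 1), was 1.89, against a median of 0.03 over these genes, and 41 genes (0.547%) had a difference at least as large. The pairs also differed in Y-linked genes. Eif2s3y had 48.5 RPKM in replicate 1, 44.7 RPKM in replicate 2 and a value of 0 in replicates 3 and 4, where Ddx3y, Uty and Kdm5d were at 0 too. Across 7430 of these genes the difference correlated with the GC content of the transcript (Spearman 0.613, across genes of the same 4 libraries), and the Amelx transcript has 54.0% GC against a median of 51.1%. The part of these differences in the values of Amelx was not tested.

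Over the 4 libraries the genes with the pattern most like that of Amelx were Abat, Syp, Slc43a2, Prss53 and Arhgef4. Likeness was the Euclidean distance between profiles of log2(RPKM + 1), each centred on the gene's own mean, among the 7490 genes, and with 4 libraries it describes little more than their order and spacing. Abat, the enzyme that breaks down the transmitter GABA, was nearest at a distance of 0.0837, with 6.11, 3.8, 21.4 and 20.5 RPKM in replicates 1 to 4. Syp, the vesicle protein synaptophysin, followed at 0.0960, with 33.9, 24.5, 104.9 and 109 RPKM. Slc43a2, an amino acid transporter, lay at 0.131, Prss53, a serine protease, at 0.202 and Arhgef4, a guanine nucleotide exchange factor, at 0.237. All 5 were lowest in replicate 2 and high in replicates 3 and 4, which follows from their selection by likeness to Amelx. Arhgap6 lay at 2.28 and was also lowest in replicate 2, but it was highest in replicate 1.

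**Figure D4:**
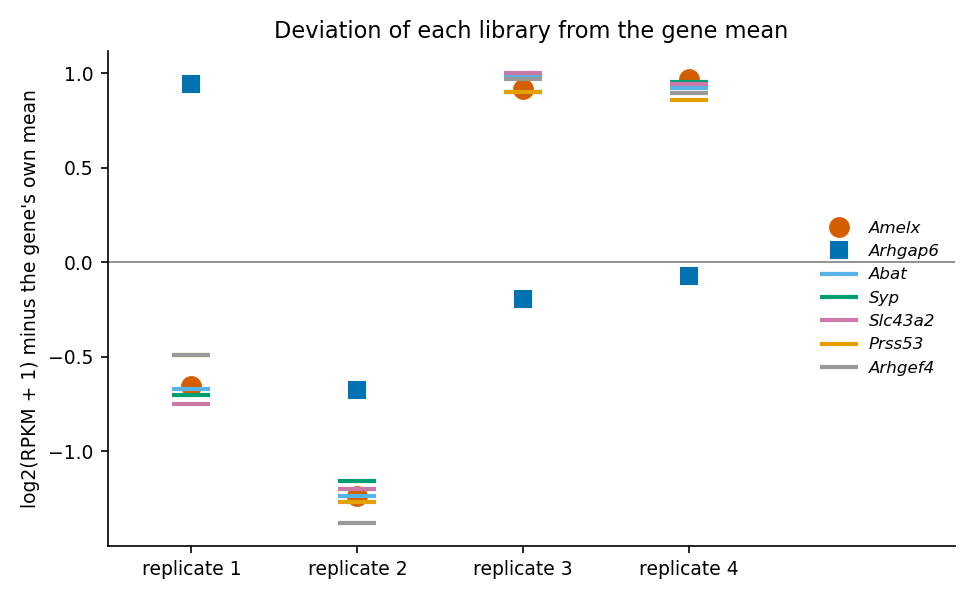
Deviation of each library from the gene's own mean in log2(RPKM + 1) for Amelx, Arhgap6 and the 5 genes nearest to Amelx. Amelx is at -0.66, -1.24, 0.92 and 0.97 in replicates 1 to 4 and these 5 genes follow it closely, whereas Arhgap6 is at 0.94 in replicate 1 and below 0 in the others.

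Of the delivered factors, Pdx1, Neurog3 and Mafa ordered the libraries in another way than Amelx, while the order of Pax6 differed only between replicates 1 and 2. Pdx1 had 3739, 1948, 3568 and 3465 RPKM in replicates 1 to 4. Neurog3 and Mafa had the same order of libraries, highest in replicate 1 and lowest in replicate 2. Pax6 was at 1189, 1403, 2007 and 2052 RPKM and, like Amelx, higher in both of replicates 3 and 4 than in replicates 1 and 2. Amelx was, like Pdx1, lowest in replicate 2, but its value in replicate 1 was far below those in replicates 3 and 4. The values of the factors combine delivered and endogenous transcripts, and with 4 libraries no correlation was computed.

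Relatives of amelogenin in the secretory calcium-binding phosphoprotein family were mostly listed at 0 or low. Of 14 other genes of that family and its neighbours, 8 were listed at 0 in every library, against 3458 of all 20377 genes. The 8 include Dmp1 and Dspp of dentine and the casein genes Csn1s1 and Csn2. Spp1, osteopontin, which biliary epithelium also makes, stood highest at 639 ± 465 RPKM (SD, n = 4), or 408 RPKM without replicate 2, and Csn3, kappa-casein, was at 29.3, 24.8, 10.5 and 11.9 RPKM in replicates 1 to 4. Sparc, a matrix glycoprotein from which the family is thought to derive, was at 0.43, 70.0, 13.9 and 14.9 RPKM. Of the 6 genes tested, these 3 lay above 1 RPKM (50.0%) and Ibsp, Sparcl1 and Odaph below it (limma). Among all genes tested 65.0% lay above and 26.1% below. Sparc passed in neither direction without replicate 2, 3 or 4, and its mean was 9.74 RPKM without replicate 2. Sparcl1, the next by level, was listed at 0 in replicate 2 and at 0.19 to 0.54 RPKM in the others. The list's median was 0 RPKM with its 8 genes at 0 counted. The median of 7.38 RPKM for all genes tested leaves such genes out, so these medians cannot be compared.

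Genes that enamel formation needs but that many epithelia share were transcribed about as often as other genes. Of 30 genes for adhesion, ion handling and secretion in ameloblasts, 20 lay above 1 RPKM (66.7%), 8 below it and 2 in neither direction (limma), with a median of 7.60 RPKM. The shares among all genes tested were 65.0% above and 26.1% below, and their median was 7.38 RPKM. Lamb3, a laminin chain of basement membranes, was highest at 119 ± 52.2 RPKM, then Rogdi at 98.8 ± 26.1 RPKM, Car2, a carbonic anhydrase, at 74.8 ± 17.1 RPKM and Itgav, an integrin chain, at 62.8 ± 34.4 RPKM (SD, n = 4). Fam20c, the kinase that phosphorylates secreted enamel proteins, was at 21.6 ± 3.37 RPKM. By contrast Slc24a4, the calcium exchanger of maturing enamel, was listed at 0 in replicate 2 and at 0.08 to 0.24 RPKM in the others, and Col17a1, a hemidesmosome collagen, was at 0.0375 ± 0.0206 RPKM (limma, below 1 RPKM). These last 3 were chosen after their values were seen.

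Of 23 transcription factors of ameloblasts and teeth, 10 lay above 1 RPKM (43.5%), 11 below it and 2 in neither direction (limma), against 65.0% above and 26.1% below among all genes tested. Their median of 0.923 RPKM stands beside 7.38 RPKM over the whole test. The highest were factors of broad expression, namely Foxo1 at 36.6 ± 9.24 RPKM, Nfya at 18.3 ± 3.21 RPKM, Med1 at 12.0 ± 4.38 RPKM and Cebpb at 9.62 ± 3.71 RPKM (SD, n = 4). Sp6, which ameloblasts need to mature, was at 3.15 ± 0.578 RPKM and above 1 RPKM, while Msx2 at 0.26 ± 0.216 RPKM and Dlx3 at 0.113 ± 0.0222 RPKM, both regulators of enamel genes, lay below it. These 3 were named after their values were seen. Lamp1 and Cd63, lysosomal membrane proteins reported to bind amelogenin, were at 996 ± 197 RPKM and 322 ± 71.8 RPKM and above 1 RPKM, as in most cell types.

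Relatives of the enamel peptidases were mostly low. Of 11 matrix peptidases besides Mmp20 and Klk4, only Mmp14, a membrane-bound metalloproteinase, at 50.1 ± 9.94 RPKM and Klk8 at 3.79 ± 0.481 RPKM lay above 1 RPKM, 5 lay below and 3 were listed at 0, with a median of 0.11 RPKM, against 65.0% above and 26.1% below among all genes tested. Mmp7 had 0, 1.24, 0.76 and 2.06 RPKM in the 4 libraries, and Mmp13 was at 0.263 ± 0.317 RPKM (SD, n = 4), or 0.107 RPKM without replicate 1. Of 12 GTPase-activating relatives of Arhgap6, 8 lay above 1 RPKM (66.7%) and 3 below, near the shares of 65.0% and 26.1% over all genes tested, with a median of 3.85 RPKM. Without replicate 3 or 4, Arhgap36 passed in neither direction, and Dlc1, called below, lost its call without replicate 1, 3 or 4. Arhgap35 led at 75.2 ± 13.2 RPKM, before Arhgap5 at 54.3, 69.6, 9 and 6.64 RPKM in replicates 1 to 4, Arhgap1 at 29.9 ± 8.70 RPKM and Arhgap24 at 26.8 ± 13.5 RPKM (SD, n = 4).

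**Figure D5:**
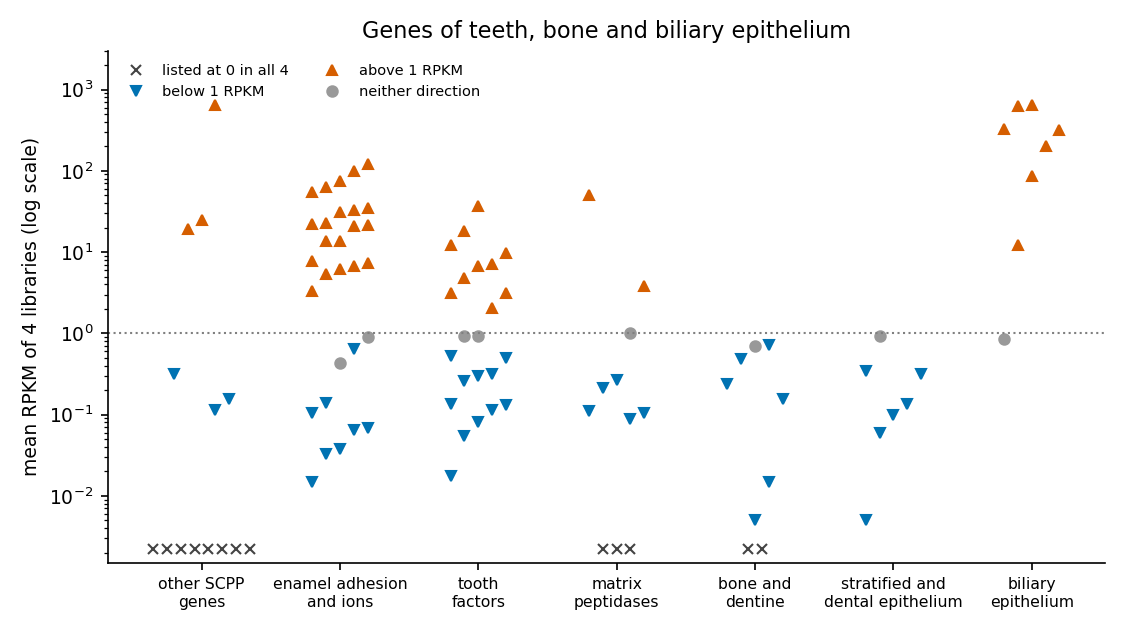
Mean RPKM over 4 libraries (log scale) of each gene in 7 lists, by its place above or below 1 RPKM in limma's test, with crosses at the bottom for genes listed at 0 in all 4 libraries. Most genes of bone, dentine, stratified and dental epithelium lie below 1 RPKM, while 7 of 8 biliary genes lie above it.

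Markers of the cell types that make enamel or dentine were low. Among all genes tested, 65.0% lay above 1 RPKM and 26.1% below it. Of 7 markers of stratified and dental epithelium, 0 lay above 1 RPKM in limma's test, also at an unadjusted p under 0.05, and 6 below it, and the list's summed level was 3.85, 1.29, 1.19 and 1.18 RPKM in replicates 1 to 4. Shh, a signalling protein of the tooth germ, was at 0.345 ± 0.584 RPKM (SD, n = 4) and 0.0533 RPKM without replicate 1, and was no longer called below 1 RPKM without replicate 2, 3 or 4. Krt14, a basal keratin, had 0.9 RPKM in replicate 1 and 0.35 RPKM in replicate 2, Krt17 had 0.29 RPKM and 0.25 RPKM there, and both had a value of 0 in replicates 3 and 4. Without replicate 1 their means were 0.117 and 0.0833 RPKM. Of 9 bone and dentine markers, 0 lay above and 6 below 1 RPKM and 2, Dspp and Dmp1, were listed at 0, with sums of 1.73 to 2.75 RPKM over the libraries. Col1a2, a collagen chain, was highest at 0.713 ± 0.142 RPKM. The summed levels of both lists were lower in replicates 3 and 4 than in replicates 1 and 2. Values this low can be failed estimates, and a part of such cells in the level of Amelx was not tested. Of the biliary markers 7 of 8 lay above 1 RPKM, led by Spp1 and by Krt7 at 635 ± 186 RPKM, and both insulin genes did. No endothelial marker of 5 and no mesenchymal marker of 6 lay above it, also at an unadjusted p under 0.05. By contrast 2 of 6 immune markers (Cd68 and Csf1r) and 2 of 4 hepatocyte markers (Alb and Ttr) did. Cd68 was at 138 ± 19.6 RPKM and Csf1r at 10.9 ± 6.56 RPKM (SD, n = 4). Ptprc, the pan-leukocyte antigen, was at 0.01 RPKM or listed at 0.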

How the data were processed

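RNA sequencing of 4 libraries of 1 group was used. The authors deposited RPKM values, rounded to 2 decimals, for 20377 genes with 1 RefSeq transcript each. CASAVA 1.8.2, Bowtie and the build mm9 are named in the submitters' processing notes, and TruSeq v2 libraries were made per the labels' protocols. How reads were counted, and with which strand setting, is not stated there. Another 6 per-sample columns match no sample of this series and were not used. The table's starts count from 0 and were raised by 1.

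The genes, lists and rules were chosen with earlier results of these data known. Levels were tested against 1 RPKM with limma 3.58.1 in R 4.3.3 on log2(RPKM + 1), as a two-sided test with a variance trend. P-values were adjusted by Benjamini-Hochberg across 16919 genes, leaving out those at 0 throughout, and called at 0.05. On data simulated from 5376 real genes with low to moderate levels, 93% of 100 genes set at 8 RPKM were called. Of 100 set at 0.1 RPKM 62% were called, and of 5176 set at 1 RPKM 0.116%. By unadjusted p these shares were 100%, 87% and 5.8%. Most genes there were set at 1 RPKM, whereas in the libraries 65.0% of the genes tested lay above it and 26.1% below. The adjusted shares therefore do not carry over to the calls made here, whose error rate was not tested. Depth was fitted to the step of 1 read in olfactory receptor genes. Of 993 short ones, the fit used those above 0 and under 0.3 RPKM, which were 32, 25, 14 and 16 in replicates 1 to 4. It gave 24.1, 22.2, 24.6 and 32.9 M reads for replicates 1 to 4. Estimated reads use GENCODE M21 transcript lengths, which may differ from those of the authors. Genes named were the 8 genes, those next to Amelx in level, within 1 Mb of it or nearest in pattern (5 genes of at least 10 RPKM), and the 4 highest of each list of genes related to enamel, peptidases or Arhgap6. Genes of the cell type marker lists were named after their values were seen, and 1 of them is not reported here. Older symbols were matched through RefSeq, and Xist has no row in the table used here. Alternatives were other pseudocounts, filters, reference levels, scalings, no trend and each library left out.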

Additional observations from a re-analysis of the deposited data

Results flagged for a closer look

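Chance alone marks about 1 in 20 groups of libraries with a value that stands apart, and 21 genes were checked. Mmp20 was at 0.12 RPKM in replicate 4, apart from 0.04 to 0.05 RPKM in the other 3 libraries. Klk4 was at 0.08 RPKM in replicate 3 and listed at 0 in the others. A gene above 0 in only 1 library is always marked, so the rate above does not apply to Klk4. Msl3, a neighbour of Amelx, was at 24.9 RPKM in replicate 2, apart from 14.7 to 15.5 RPKM in the others. The causes were not tested.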

How the results depend on the processing

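Amtn, Mmp20 and Klk4 stayed below the reference level under every alternative in which they were tested. The count of genes other than Amelx below 1 RPKM was 3, but 1 with only genes of a mean of at least 0.1 RPKM and 6 with genes at 0 in every library kept, because these filters set which genes are tested. The same filters changed the count of all genes below 1 RPKM from 4423 to 1889 and 7777. The count above was 0, but 1 with a reference level of 0.5 RPKM, where Arhgap6 passed (limma, adjusted p = 0.0434). Against 2 RPKM the difference of Arhgap6 turned to -0.27 on the log2(RPKM + 1) scale (limma, adjusted p = 0.382), and over all its alternatives its adjusted p lay between 0.0434 and 0.983. Scaling each library to the same sum (1 M) raised the mean of Amelx to 18896 and that of Arhgap6 to 3.36. Leaving out 1 library at a time gave means of 8371 to 12730 RPKM for Amelx and 1.04 to 2.12 RPKM for Arhgap6, and a mean ratio of 6684 to 10758 around 8424. The count below 1 RPKM was then 2 to 3, with 2 without replicate 3, the only library with reads of Klk4. No paired analysis was possible because the study has 1 group. The floors given for Ambn, Enam and Odam hold only if their values of 0 are counts of reads, and set no limit if they are failed estimates. The low values of Amtn, Mmp20 and Klk4 can be failed estimates too.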
